A study of Mus musculus with 2 samples.

Results

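The homeostatic microglia genes described here are P2ry12, Tmem119, Cx3cr1, Csf1r, Siglech, Gpr34, Fcrls and Selplg, 8 of the 32285 genes counted. They were chosen by name, as genes known to mark resident microglia, and were followed in 52 db/db and 52 wild-type retinal cells. Those cells were selected from 10963 db/db and 10230 wild-type cells by a separate set of genes. A cell passed if C1qa, C1qb, C1qc, Ctss and Fcer1g together had at least 8 unique molecular identifiers (UMIs, each counting 1 captured RNA molecule). None of the 8 genes was used in that gate.

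Microglia are the resident macrophages of the central nervous system, and in the retina they tile the plexiform layers with motile processes. In undisturbed tissue they carry a shared set of surface receptors with which they sense nucleotides, lipids, chemokines and growth factors. Transcripts of this set are widely used to tell microglia from monocyte-derived macrophages, and several of them are known to decrease when microglia become activated.

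Retinas of db/db and wild-type mice on the C57BLKS background were compared at 13 weeks of age. The db/db mice are homozygous for a mutation of the leptin receptor gene Lepr, which makes them obese and diabetic, and the controls carried Lepr wt/wt and are also called m/m in the labels. No mouse was treated. Per the labels, retinas of 2 mice per genotype were digested with enzymes, and each genotype was represented by 1 droplet library (10x Genomics 3' v3.1), with no map from cells to mice used here. No test between genotypes was therefore possible, and none of the differences below has a replicate check. All intervals are 95% intervals that cover counting error only.

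The db/db library held 33742189 UMIs over 11083 barcodes and the wild-type library 35642274 UMIs over 10308 barcodes. The 2 libraries shared 26 barcodes, and 0 of these belonged to gated cells. The gate took 0.474% of kept db/db cells (exact Clopper-Pearson interval 0.354 to 0.622%) and 0.508% of kept wild-type cells (0.380 to 0.666%). The ratio of these shares was 0.933 (0.623 to 1.40), an interval that holds 1. The gated db/db cells were the deeper ones, with a median of 5380.5 UMIs (range 523 to 18717), against 2194.5 UMIs (516 to 14602) in gated wild-type cells. At the border of the gate, 6 db/db and 3 wild-type cells with 8 to 11 gate UMIs held 11 and 1 UMIs of the 8 genes. Just outside it, 3 db/db and 5 wild-type cells with 5 to 7 gate UMIs held 2 and 16.

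The label of these cells was checked against markers. Of the markers of microglia or macrophages that are neither gate genes nor members, Tyrobp had 293 UMIs in gated db/db cells and 259 in gated wild-type cells, and Aif1 had 64 UMIs in db/db and 71 in wild type. The gate fixed the detection of its own 5 genes, which are markers too. Every gated cell fell in a microglia or macrophage-like cluster, but the gate genes are among the markers that name these clusters. Neutrophil markers (S100a8, S100a9, Ly6g, Retnlg, Camp and Mmp9) had 0 UMIs in the gated cells of both libraries. Dendritic cell markers had 0 UMIs in gated db/db cells and 8 in gated wild-type cells, 7 of them of Ccr7. In wild type, 2 cells held at least 3 of these UMIs. Of the 7 monocyte markers, 6 were detected in gated db/db cells and 0 in gated wild-type cells, with 83 and 0 UMIs in all. Every one of the 83 came from a single db/db cell. Markers of other tissue macrophages reached 34 UMIs in db/db (6 of 8 detected) and 19 UMIs in wild type (4 of 8). F13a1 had 13 UMIs in db/db and 0 in wild type, Pf4 9 and 2, and Mrc1 7 and 0. Ms4a7, with 2 UMIs in db/db and 11 in wild type, and Folr2, with 2 and 5, went the other way.

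The members lie on 6 chromosomes and are single protein-coding genes. In the GENCODE M21 annotation of GRCm38, P2ry12 occupies chr3:59216272-59262871, Fcrls chr3:87250758-87263738, Cx3cr1 chr9:119901616-120069879, Tmem119 chr5:113793729-113800516 and Selplg chr5:113818536-113832644, all on the minus strand. Siglech lies at chr7:55768178-55778925 and Gpr34 at chrX:13632089-13640858, both on the plus strand. Tmem119 and Selplg are neighbours, with 18019 bases and 1 processed pseudogene between them. P2ry12 is next to P2ry13, another purinergic receptor gene, with 5389 bases and no annotated gene between them.

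Promoter windows show what sequence lies in front of genes that are used in the same cells. The RefSeq table matched 4 of the 8 genes. The 250 bases before the RefSeq start site (GRCm38.p6) are given, 5′ to 3′ on the gene's own strand, for P2ry12 at chr3:59262986-59263235 (minus), Siglech at chr7:55767934-55768183 (plus) and Fcrls at chr3:87263525-87263774 (minus). Capitals mark AGGAAG or its reverse complement CTTCCT, the core letters of sites for PU.1, the transcription factor that specifies the myeloid lineage.
P2ry12: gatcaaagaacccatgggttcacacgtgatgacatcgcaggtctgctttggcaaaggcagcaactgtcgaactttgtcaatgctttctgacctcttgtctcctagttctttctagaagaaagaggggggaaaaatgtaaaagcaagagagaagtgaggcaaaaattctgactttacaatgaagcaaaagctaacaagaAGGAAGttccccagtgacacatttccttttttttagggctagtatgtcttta
Siglech: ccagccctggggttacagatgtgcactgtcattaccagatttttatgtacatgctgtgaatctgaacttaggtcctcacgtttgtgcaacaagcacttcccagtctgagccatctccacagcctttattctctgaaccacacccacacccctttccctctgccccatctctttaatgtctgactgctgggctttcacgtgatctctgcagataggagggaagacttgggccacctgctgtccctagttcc
Fcrls: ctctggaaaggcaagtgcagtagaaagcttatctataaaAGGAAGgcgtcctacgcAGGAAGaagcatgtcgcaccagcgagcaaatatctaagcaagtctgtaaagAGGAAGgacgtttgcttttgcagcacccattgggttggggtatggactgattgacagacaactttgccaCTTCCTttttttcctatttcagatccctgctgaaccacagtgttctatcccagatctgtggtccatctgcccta
P2ry12 held the letters 1 time, 52 bases before the start site. Fcrls held them 4 times, 3 on the gene's strand and 1 on the other. Siglech and Cx3cr1 (chr9:120068297-120068546, minus) held them 0 times in this window. Of all 32851 windows of this length in the RefSeq table, 29.5% held AGGAAG on either strand, so a match is common.

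The 8 genes were almost confined to microglia or macrophage-like cells among the retinal cells captured. The 12 markers that named this class include P2ry12, Tmem119, Cx3cr1, Csf1r and the gate genes. A high level of these genes there was therefore partly set in advance. Their UMIs summed to 4767 per 1000000 UMIs of the class (CPM) in db/db and 4265 CPM in wild-type microglia or macrophage-like cells (61 db/db and 66 wild-type cells by clustering). In Muller glia-like cells, the main macroglia of the retina, the sum was 2.54 CPM in db/db and 2.08 CPM in wild type. It was 0.692 CPM in db/db rod-like cells and 1.30 CPM in wild-type ones, and between 0.902 and 2.63 CPM in cone-like and bipolar-like cells. Amacrine-like and erythroid-like cells had 0 UMIs of the 8 genes in both libraries. Among pigment epithelium-like cells only Csf1r was seen, with 1 UMI in 16 db/db cells and 4 UMIs in 46 wild-type cells. On these few UMIs the level was 26.5 CPM in db/db (0.671 to 148) and 52.4 CPM in wild type (14.3 to 134). The wild-type interval lay above those of Muller glia-like, rod-like, cone-like and bipolar-like cells. The db/db interval overlapped those of all these classes. Endothelial-like cells, 6 in db/db and 3 in wild type, had 0 UMIs of the 8 genes. Their intervals reached up to 343 CPM in db/db and 2109 CPM in wild type, so the order of these classes was not resolved.

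**Figure D1:**
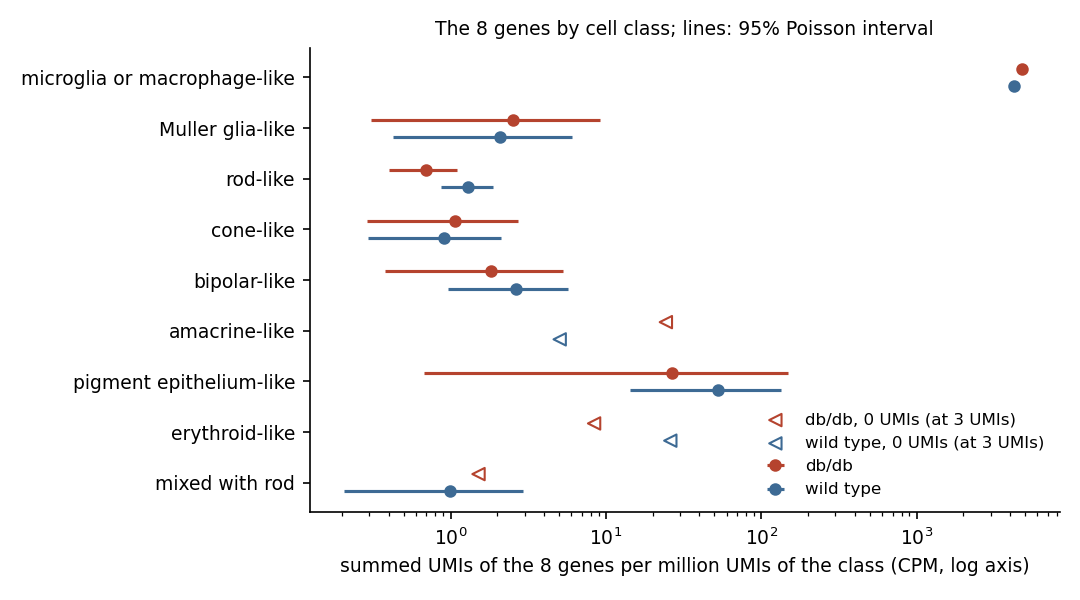
Summed UMIs of the 8 genes per 1000000 UMIs of each cell class (log axis), db/db above wild type, with 95% Poisson intervals. Endothelial-like cells are not drawn. Open triangles mark the level of 3 UMIs where 0 were counted. Microglia or macrophage-like cells lie at 4767 and 4265 CPM, and rod-like cells at 0.692 and 1.30 CPM.

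Free RNA in the droplets sets the floor for such values. A UMI of any of the 8 genes was present in 92.3% of gated cells in each library, against 0.194% of 8752 db/db rod-like cells (0.113 to 0.311%) and 0.365% of 7406 wild-type rod-like cells (0.240 to 0.530%). Rod-like cells should lack these genes, and their median depth was 1943.5 UMIs in db/db and 2214 UMIs in wild type. After each cell was thinned to 1000 UMIs, which kept 41 of 52 gated cells in each library, the share was 92.7% in db/db and 97.6% in wild type. Rod-like cells thinned the same way had shares of 0.0653% in db/db (7662 cells) and 0.133% in wild type (6027 cells). Gated cells therefore stood far above this background at equal depth.

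Gated cells held 97.2% of all db/db UMIs and 92.5% of all wild-type UMIs of the 8 genes. Taken gene by gene, each but Csf1r had more than 90% of its UMIs there in both libraries, and Csf1r had 95.5% in db/db and 88.1% in wild type. Of all 1410 measured genes (at least 50 UMIs in gated cells over both libraries), 4.96% reached 90% in both. Reads of overlapping genes could not be set apart, since strand use in counting is not given in the sources used here. Opposite-strand partners Med12l (P2ry12), Hmgxb3 (Csf1r) and Cask (Gpr34) had 2, 6 and 9 UMIs in gated db/db cells and 2, 2 and 8 in gated wild-type cells. Within the long Cx3cr1 locus, Csrnp1 on the same strand had 104 UMIs in gated db/db cells and 72 in gated wild-type cells.

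Most deep gated cells held nearly the whole set. In db/db, 26 of 52 gated cells had UMIs of 7 or 8 of the genes, and in wild type 14 of 52. Every one of these 40 cells had at least 2500 UMIs, a depth reached by 37 db/db and 25 wild-type gated cells. Among those deep cells the median number of genes detected was 7 in both libraries. A deep db/db cell held a median of 32 UMIs of the 8 genes (range 4 to 77) and a deep wild-type cell 31 (2 to 59). All 8 genes were found together in 1 db/db cell and 5 wild-type cells. Fcrls was the gene most often missing in both libraries. None of the 8 was found in 4 cells of each library, all of them under 2500 UMIs.

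**Figure D2:**
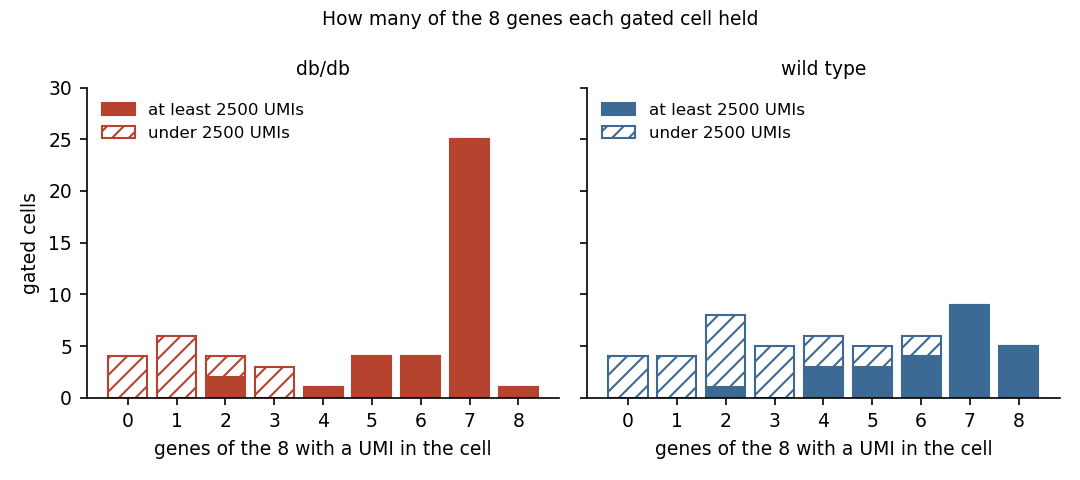
Number of gated cells (vertical axis) by how many of the 8 genes had a UMI in the cell, for db/db on the left and wild type on the right; hatched parts are cells under 2500 UMIs. The tallest db/db bar is 25 cells with 7 genes, where wild type has 9.

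The nucleotide and lipid receptors were close between the genotypes. P2ry12 encodes the ADP receptor by which microglial processes find sites of injury. It had 122 UMIs in gated db/db cells, or 488 CPM (Poisson interval 405 to 582), and 92 UMIs in gated wild-type cells, or 463 CPM (373 to 567). It was seen in 31 db/db and 34 wild-type cells, at up to 13 and 9 UMIs per cell. The log2 ratio of db/db over wild type was 0.08, with an exact conditional binomial interval of -0.33 to 0.48, which holds 0. It turned to -0.27 with equal weight per cell and to -0.51 with cells thinned to 1000 UMIs. Gpr34, a receptor for lysophosphatidylserine, had 121 UMIs in 34 db/db cells and 82 UMIs in 27 wild-type cells. Its log2 ratio was 0.23 (-0.19 to 0.65), also within counting error of 0.

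The chemokine and growth factor receptors were likewise similar. Cx3cr1 encodes the receptor for fractalkine, through which neurons signal to microglia. It had 296 UMIs in gated db/db cells, or 1184 CPM (1053 to 1326), and 237 UMIs in gated wild-type cells, or 1192 CPM (1045 to 1353), a log2 ratio of -0.01 (-0.26 to 0.24). The gene was present in 38 db/db and 28 wild-type cells, but at 1000 UMIs per cell those shares were 63.4% and 56.1%. Csf1r, the receptor tyrosine kinase on which microglia depend for survival (chr18:61100598-61132149, plus strand), had 321 UMIs in 45 db/db cells and 223 UMIs in 40 wild-type cells. That is 1283 CPM (1147 to 1432) in db/db and 1121 CPM (979 to 1278) in wild type, a log2 ratio of 0.20 (-0.06 to 0.45).

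The ligands of these receptors differed in where they were found. Cx3cl1 (fractalkine) was at 48.7 CPM in db/db amacrine-like cells (6 UMIs; 17.9 to 106 CPM) and 65.6 CPM in wild-type ones (39 UMIs; 46.6 to 89.6). In bipolar-like cells it was at 26.8 CPM in db/db (44 UMIs; 19.5 to 35.9) and 31.6 CPM in wild type (72 UMIs; 24.7 to 39.8), so the order of these classes was not resolved in db/db. It had 0 UMIs in microglia or macrophage-like cells of both libraries. Csf1 was found in microglia or macrophage-like cells themselves, at 56.0 CPM in db/db (31.3 to 92.3) and 50.3 CPM in wild type (25.1 to 89.96). In Muller glia-like cells Csf1 was at 8.89 CPM in db/db (3.57 to 18.3) and 28.4 CPM in wild type (20.4 to 38.6), and the interval of the wild-type Muller glia-like cells overlapped that of the wild-type microglia or macrophage-like cells. Il34, the other ligand of the Csf1r protein, had at most 2 UMIs in any class.

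Tmem119 had the widest difference among the 7 measured members. It encodes a membrane protein of little-known function that is a standard marker of microglia. It had 138 UMIs in gated db/db cells, or 552 CPM (464 to 652), and 60 UMIs in gated wild-type cells, or 302 CPM (230 to 388). It was detected in 35 db/db cells, at up to 14 UMIs, and in 25 wild-type cells, at up to 7. The log2 ratio was 0.87 (0.42 to 1.33), and it was 0.86 (0.39 to 1.34) among cells of at least 2500 UMIs. At 1000 UMIs per cell, however, the share of cells with a Tmem119 UMI was 39.0% in db/db (24.2 to 55.5%) and 34.1% in wild type (20.1 to 50.6%), intervals that overlap widely.

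Its neighbour Selplg encodes the P-selectin ligand PSGL-1, which is found on many leukocytes. It had 144 UMIs in 36 gated db/db cells and 96 UMIs in 29 gated wild-type cells, a log2 ratio of 0.25 (-0.13 to 0.64). Siglech encodes a sialic acid-binding lectin that is shared by microglia and plasmacytoid dendritic cells. It had 124 UMIs in 33 db/db cells and 103 UMIs in 32 wild-type cells, a log2 ratio of -0.06 (-0.45 to 0.33). Of the markers of plasmacytoid dendritic cells, Klk1 and Ly6d had 0 UMIs in gated cells of both libraries and Ccr9 had 1 UMI in each, while Tcf4 had 60 UMIs in db/db and 29 in wild type.

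Fcrls, an Fc receptor-like scavenger molecule of mouse microglia, was scarce in both libraries. It had 2 UMIs in 2 gated db/db cells and 16 UMIs in 8 gated wild-type cells, too few to count as measured. The log2 ratio was -3.33, with an interval of -6.49 to -1.24. Of the 8 wild-type cells, 1 had 581 UMIs in all and the others 4630 to 14602. One of the 2 db/db UMIs lay in a cell of 760 UMIs that also held 6 UMIs of tissue macrophage markers.

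**Figure D3:**
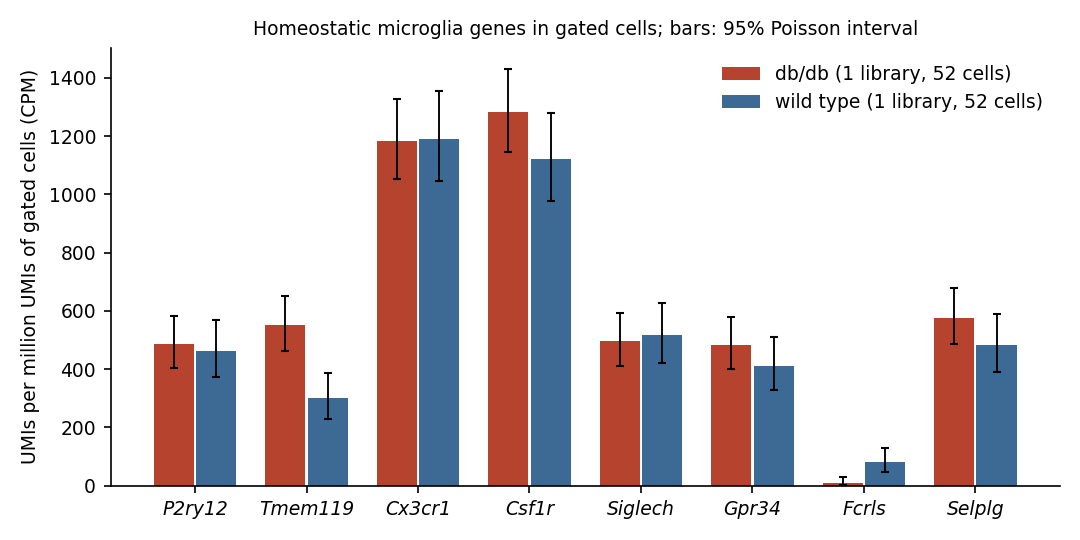
UMIs per 1000000 UMIs of gated cells for each gene, db/db left of wild type, with 95% Poisson intervals, from 1 library and 52 cells each. The intervals of Tmem119 (464 to 652 in db/db, 230 to 388 in wild type) and Fcrls do not overlap, and those of the other 6 genes do.

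As a group the 8 genes were at 5070 CPM in gated db/db cells (1268 UMIs; 4795 to 5357 CPM) and 4570 CPM in gated wild-type cells (909 UMIs; 4278 to 4877 CPM). The log2 ratio of the sums was 0.15 (0.03 to 0.27). Without Tmem119 the sum was 4518 CPM in db/db and 4269 CPM in wild type, a log2 ratio of 0.08 (-0.05 to 0.21) that holds 0. With free RNA subtracted, the log2 ratio over all 8 genes was also 0.08. Over the 7 measured members the median log2 ratio was 0.20, beside -0.03 over all 1410 measured genes. Of the 7, 2 were below 0, where 53.5% of all measured genes were, and 5 were above 0, where 46.5% were. None reached a log2 ratio of 1 or of -1, which 1.84% and 2.06% of measured genes did. The 5 gate genes, whose levels the gate itself shapes, were at 13434 CPM in db/db and 18100 CPM in wild type, a log2 ratio of -0.43 (-0.50 to -0.36).

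**Figure D4:**
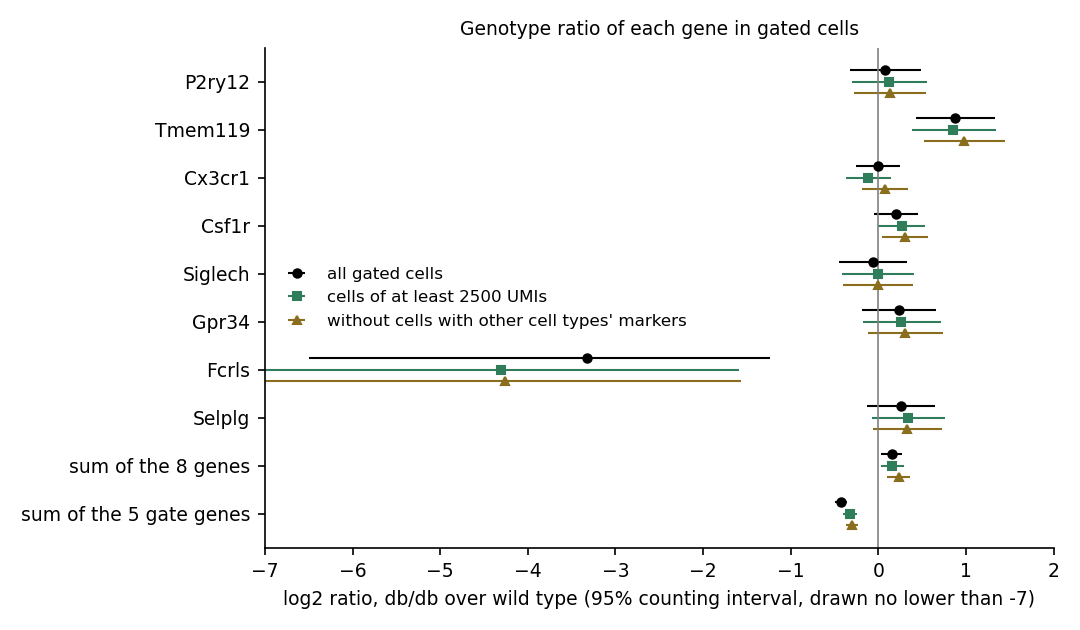
Log2 ratio of db/db over wild type for each gene with its 95% counting interval. The sets are all gated cells, cells of at least 2500 UMIs, and gated cells without those set apart by macrophage, monocyte or Muller glia markers. The 5 gate genes together lie below 0 in each set of cells, and Tmem119 lies above 0.

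The summed level of the 8 genes was higher in db/db among deep gated cells but lower among shallow ones. The 15 db/db cells under 2500 UMIs had 523 to 1401 UMIs, and the 27 wild-type cells 516 to 2198. No shallow db/db cell held more than 3 UMIs of the 8 genes, while 1 shallow wild-type cell held 21 and another 19. In these shallow cells the 8 genes summed to 1599 CPM in db/db (21 UMIs; 990 to 2444 CPM) and 3768 CPM in wild type (120 UMIs; 3124 to 4506 CPM), a log2 ratio of -1.24 (-1.98 to -0.56). In deep cells the log2 ratio of the sums was 0.16 (0.03 to 0.29), where Tmem119 alone had an interval above 0 and Cx3cr1 was at -0.12 (-0.37 to 0.14), and the difference between the ratios at the 2 depths was not tested. P2ry12 had 0 UMIs in shallow db/db cells, a count that allows up to 228 CPM by the limit of 3 UMIs, and 13 UMIs or 408 CPM in shallow wild-type cells. Csf1r kept 9 UMIs (685 CPM) in shallow db/db cells and 40 UMIs (1256 CPM) in shallow wild-type cells.

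Set within each library, deep db/db cells had 5262 CPM of the 8 genes and shallow db/db cells 1599 CPM, a log2 ratio of 1.72 (1.10 to 2.42). Deep wild-type cells had 4723 CPM and shallow wild-type cells 3768 CPM, a log2 ratio of 0.33 (0.05 to 0.62). Without Cx3cr1 the sum in wild type was 3376 CPM in deep and 3391 CPM in shallow cells (-0.01, -0.31 to 0.30), and in db/db 4022 CPM in deep and 1447 CPM in shallow cells (1.47, 0.82 to 2.21). Cx3cr1 differed the same way in both libraries, with 1241 CPM in deep and 152 CPM in shallow db/db cells (log2 ratio 3.03, 1.16 to 6.08), and 1347 CPM in deep and 377 CPM in shallow wild-type cells (1.84, 1.004 to 2.81). In deep over shallow cells, 19.6% of 693 measured genes in db/db and 36.6% of 584 in wild type had a log2 ratio of at least 1. The microglial genes used for the gate ran the other way, with log2 ratios of -0.76 in db/db and -0.78 in wild type, and a shallow cell needs a larger share of gate UMIs to pass the gate.

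Shallow cells also differed in RNA make-up. Mitochondrial transcripts were 2.13% of UMIs in deep and 5.67% in shallow db/db cells, and 1.73% in deep and 4.26% in shallow wild-type cells. Ribosomal protein transcripts were 8.77% in deep and 20.2% in shallow db/db cells, and 6.98% in deep and 17.9% in shallow wild-type cells. The part of these differences in the level of the 8 genes was not tested.

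**Figure D5:**
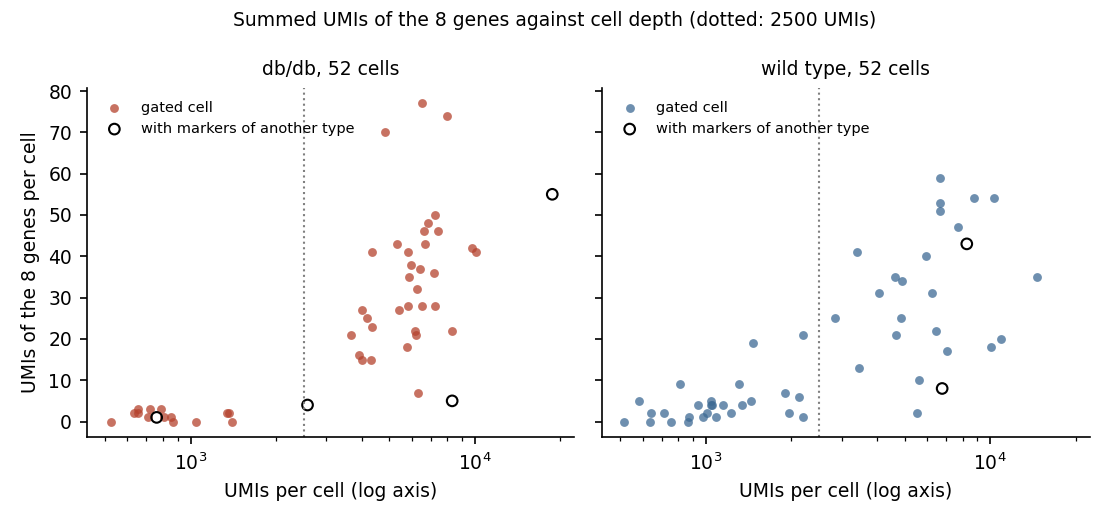
Summed UMIs of the 8 genes in each gated cell against the cell's total UMIs (log axis), db/db left and wild type right. The dotted line marks 2500 UMIs, and open circles are cells set apart by macrophage, monocyte or Muller glia markers. Shallow db/db cells hold at most 3 UMIs of the 8 genes, and shallow wild-type cells up to 21.

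A few gated cells stood out by markers of tissue macrophages, monocytes or Muller glia, some with few and some with many homeostatic transcripts. One db/db cell of 8321 UMIs held all 83 monocyte marker UMIs, chiefly Chil3 and Fn1, together with 278 of the 336 UMIs of the myeloid lysozyme gene Lyz2 in gated db/db cells. It had 4 UMIs of Csf1r, 1 of Cx3cr1 and 0 of P2ry12 and Tmem119. Counted with it, 3 db/db cells had at least 3 UMIs of tissue macrophage or monocyte markers, and these 3 held 10 UMIs of the 8 genes among 11660 UMIs. The 2 wild-type cells that met this limit held 51 among 15052. The deepest db/db cell, of 18717 UMIs, had 420 UMIs of Muller glia markers other than Apoe and 24 of endothelial markers beside 55 UMIs of the 8 genes, where the next db/db cell had 19 Muller marker UMIs and the highest wild-type cell 10. Without these 4 db/db and 2 wild-type cells, the log2 ratio of the summed 8 genes was 0.23 (0.10 to 0.36). It was 0.98 (0.52 to 1.45) for Tmem119 and 0.30 (0.04 to 0.56) for Csf1r. Gated cells with markers of other retinal types stayed in. Rod markers reached 467 UMIs in the highest db/db cell and 707 in the highest wild-type cell, and bipolar markers 5 and 36.

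The wider set of homeostatic and core microglia genes lay on both sides of 0. Of 50 such genes, 44 were measured, 19 above and 25 below 0, near the 46.5% and 53.5% of all measured genes, with a median log2 ratio of -0.10. As for the members, 0 of the 44 were at a log2 ratio of 1 or more or of -1 or less. Irf8, a transcription factor of the myeloid lineage, was at 480 CPM in db/db and 297 CPM in wild type (log2 ratio 0.69, 0.23 to 1.17). Ptgs1, a cyclooxygenase, was at 372 CPM in db/db and 256 CPM in wild type (0.54, 0.03 to 1.06), and Hpgds, a prostaglandin D synthase, at 300 CPM in db/db and 206 CPM in wild type (0.54, -0.03 to 1.13). Among the lowest were Cst3, a cysteine protease inhibitor, at 18281 CPM in db/db and 23987 CPM in wild type (-0.39, -0.45 to -0.33), and Cyth4, at 280 CPM in db/db and 432 CPM in wild type (-0.63, -1.10 to -0.16). Cst3 depended on depth, with 17116 CPM in deep and 39290 CPM in shallow db/db cells, and 19640.5 and 46789 CPM in wild type. Shallow cells were 15 of 52 gated cells in db/db and 27 of 52 in wild type. Only 6.98% of db/db and 6.91% of wild-type Cst3 UMIs lay in gated cells.

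Genes that enzymatic dissociation is known to induce tended to be higher in gated db/db cells. All 18 measured genes of that list were above 0, where 46.5% of all measured genes were, with a median log2 ratio of 0.51. For 4 of them, Jund, Hspa1a, Ier3 and Klf6, the interval held 0. Klf4 was at 624 CPM in db/db and 206 CPM in wild type (1.60, 1.09 to 2.13). Fos was at 4698 CPM in db/db and 2232 CPM in wild type (1.07, 0.91 to 1.23). Of all Fos UMIs, 8.06% in db/db and 1.74% in wild type lay in gated cells, so these ratios do not describe the whole libraries. They cover all gated cells, with no split by depth and with the db/db cell rich in Muller markers included. Of 30 activation genes 19 were measured, 7 above and 12 below 0, with a median of -0.11. Of these 19, 2 were at a log2 ratio of 1 or more and 5 at -1 or less, where 1.84% and 2.06% of measured genes were. They ran from Apoe, an apolipoprotein, at 3.33 (3.13 to 3.53) to H2-Aa, an MHC class II gene, with 1 UMI in db/db and 84 UMIs in wild type. Apoe is also a Muller glia marker, and 24.9% of its db/db UMIs and 1.54% of its wild-type UMIs lay in gated cells. Muller glia markers including Apoe reached 952 UMIs in the highest gated db/db cell, at a median of 4 per cell. The Apoe ratio without that cell was not computed. The part of either list in the levels of the 8 genes was not tested. Nor was the part of the wild-type cells with dendritic cell markers in the H2-Aa count.

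The genes whose UMIs were most restricted to gated cells, taking the lower of the shares in the 2 libraries, were P2ry13, Ccl12, Cxcl2, Bcl2a1b, P2ry6, Il1b, Ltc4s, Cd180, Plau and Tnf. For each, 97.5% to 100% of UMIs lay in gated cells. P2ry13 had 100% there in both libraries, with 30 UMIs in db/db and 20 in wild type and a log2 ratio of 0.25 (-0.61 to 1.15). Cxcl2, a chemokine for neutrophils, had 76 UMIs in db/db and 252 in wild type, a log2 ratio of -2.06 (-2.45 to -1.68). Il1b, the cytokine interleukin 1 beta, had 212 UMIs in db/db and 91 in wild type and a log2 ratio of 0.89 (0.53 to 1.26). Being restricted to the same cells thus went with ratios in both directions among these 10 genes.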

How the data were processed

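Single-cell RNA was counted in 1 db/db and 1 wild-type retinal library. The deposited values were raw UMI counts per gene and barcode, and per the file headers they came from cellranger 6.0.1. The mm10 genome is named in the submitters' processing notes, and annotation, cell calling and strand setting are not given in the sources used here.

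Cells with at least 200 genes and at most 20% mitochondrial UMIs were kept, which dropped 7 db/db and 1 wild-type barcodes by genes and 113 and 77 by mitochondrial share. Scrublet in scanpy 1.11.5 called 2 db/db and 0 wild-type doublets, too few for a working caller, so doublets stayed in. For classes, counts were scaled to 10000 per cell, logged, reduced to 40 components on 2000 variable genes and clustered with leidenalg 0.10.2 (15 neighbours, resolution 1.0), and cells outside the rod clusters were clustered again. A name required 3 markers at 2 times the lower quartile over clusters. UMIs of gated cells were summed per library and scaled to 1000000 (CPM). Where 1 side of a ratio was 0, it was set to 3 UMIs. The computing of ratios and intervals was checked on simulated Poisson counts per gene and library. Those counts hold no spread between cells or mice, so the check does not cover such spread.

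The members, gate, marker and gene lists were chosen with earlier results of these data known. Besides the members, the text names the 10 genes most restricted to the gate, the 3 highest and 3 lowest other microglia genes by the bound nearest 0, the gate genes, 3 ligands and up to 4 genes per list. Some genes that the rule or the marker lists cover are not reported here. Overlapping and neighbouring genes, and the partners and markers of single cells, were named after their values were seen. The groupings by 2500 UMIs and by markers in single cells were chosen after seeing the data. Alternatives varied the gate, the cell filters, the scaling, the doublet handling, the weighting of cells and the depth.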

Additional observations from a re-analysis of the deposited data

How the results depend on the processing

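No paired analysis was possible because each genotype had 1 library, and none could be left out for the same reason. The log2 ratio of the summed genes, 0.15, was 0.014 with equal weight per cell and 0.025 with cells thinned to 500 UMIs, and turned to -1.24 in cells under 2500 UMIs. In those cells the median log2 ratio of the measured members was -0.89, with P2ry12 set to 3 UMIs in db/db, and 7 members were below 0. The ratio of gated shares, always taken over all kept cells, was 0.933 for all gated cells. It was 0.518 for gated cells under 2500 UMIs and 1.38 for gated cells of at least 2500 UMIs. The number of members below 0, which was 2, was 1 with a gate of 5 UMIs, with 20 gate UMIs per 10000, with scaling by the median ratio, and without the cells with macrophage or monocyte markers, the cell rich in Muller markers, or all of these, and it was 3 with equal weight per cell, with cells thinned to 500 UMIs and with no minimum for measured genes. P2ry12 turned below 0 in 4 settings, the lowest -0.81 when thinned to 500 UMIs and -0.84, with 0 set to 3 UMIs, in cells under 2500 UMIs. The cause of these shifts was not tested. The cuts at 2500 and 500 UMIs, the removals of cells with monocyte or Muller markers and the sums without a gene were chosen after seeing the data. In the 20 settings that gave Fcrls a value, its log2 ratio stayed below 0, between -4.41 and -1.87, and the settings that left at most 3 UMIs in both libraries gave none. Tmem119 stayed above 0, at up to 0.98, in all settings but cells under 2500 UMIs, where it was -0.53 on 2 db/db and 7 wild-type UMIs. With 21 db/db UMIs of the 8 genes in shallow cells, single-gene ratios there were beyond the depth of these libraries.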
